A study of Caenorhabditis elegans with 8 samples.

Results

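The 88 genes described here are the Hedgehog-related and patched-related genes of *Caenorhabditis elegans*. They were chosen by name alone: all genes called *wrt* (warthog, 10 genes), *grd* (groundhog, 17 genes), *grl* (ground-like, 32 genes), *hog* (1 gene), *ptc* (patched, 3 genes) or *ptr* (patched-related, 24 genes) with a number, plus *qua-1* (quahog). Of these, 85 had at least 1 of 130 probes on the arrays, out of 19796 genes with a probe. *hog-1*, *ptr-10* and *ptr-16* had no matched probe and were not analysed here, and *ptc-2*, *grd-17* and *grl-32* are annotated as pseudogenes.

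Transcripts were measured in embryos of the pretzel stage, which precedes hatching, from the *aptf-1(gk794)* mutant strain and from wild-type N2 worms. *aptf-1* encodes an AP2 transcription factor that the sleep-active neuron RIS needs for its sleep-promoting function. Each genotype had 4 biological samples, each a pool of about 3000 hand-picked hermaphrodite embryos, with 1 sample per 1-colour Agilent array. RNA came from whole animals, so fewer cells of a type and less RNA per cell cannot be told apart, and a change in a single neuron is diluted by all other cells.

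In flies and vertebrates a secreted Hedgehog ligand binds the membrane protein Patched and so frees Smoothened to act on GLI transcription factors. *C. elegans* has no Hedgehog and no Smoothened. It has large families of secreted Hedgehog-related proteins, of which some share a Hint domain with Hedgehog. It also has large families of membrane proteins with a sterol-sensing domain that resemble Patched. Many proteins of both kinds are used by the epidermis, tubes and glia to secrete and shape the cuticle and other apical matrices. Reducing several of them disturbs moulting.

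Every signal is a log2 intensity set against the 75th percentile of its own array, so that 0 is the level of that percentile. Because probes differ in how well they bind, signals are compared between arrays and not between genes. The scanner software marked 79.4% to 83.1% of the probes of an array as well above background, no spot was saturated, and the arrays lay on 2 slides with 2 arrays of each genotype. The *aptf-1* probe read -1.82 to -1.38 on *aptf-1* mutant arrays, against 0.25 to 0.73 on N2 arrays (log2 fold change -2.06, standard error 0.14, Benjamini-Hochberg adjusted p = 0.0032 in limma). Markers of body wall muscle (8 of 8), neurons (10 of 10) and the pharynx (6 of 6) were well above background on all 8 arrays. Of the 14 markers of the early embryo or germline, 13 were also well above background on all 8 arrays. All 14 were tested. Their mean signal lay between -3.90 and -3.72 on *aptf-1* mutant arrays and between -4.39 and -3.59 on N2 arrays.

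Nearly all of the family was detected at this stage. A probe well above background on all 8 arrays was found for 77 of the 85 genes (90.6%), against 81.9% of all genes with a probe. All 10 *wrt* genes, all 3 *ptc* genes and *qua-1* reached this on every array, as did 16 of 17 *grd*, 27 of 32 *grl* and 20 of 22 *ptr* genes. The 8 exceptions were *grd-17*, *grl-19*, *grl-20*, *grl-23*, *grl-25*, *grl-28*, *ptr-13* and *ptr-19*. *ptr-13* was not well above background on any array, and *grl-28* on no *aptf-1* mutant array and on 2 N2 arrays, each time through 1 of its 6 probes. No gene was well above background on all arrays of one genotype and on none of the other. The 82 genes with a probe well above background on at least 4 arrays were tested, and *grl-23*, *grl-28* and *ptr-13* were not.

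**Figure D1:**
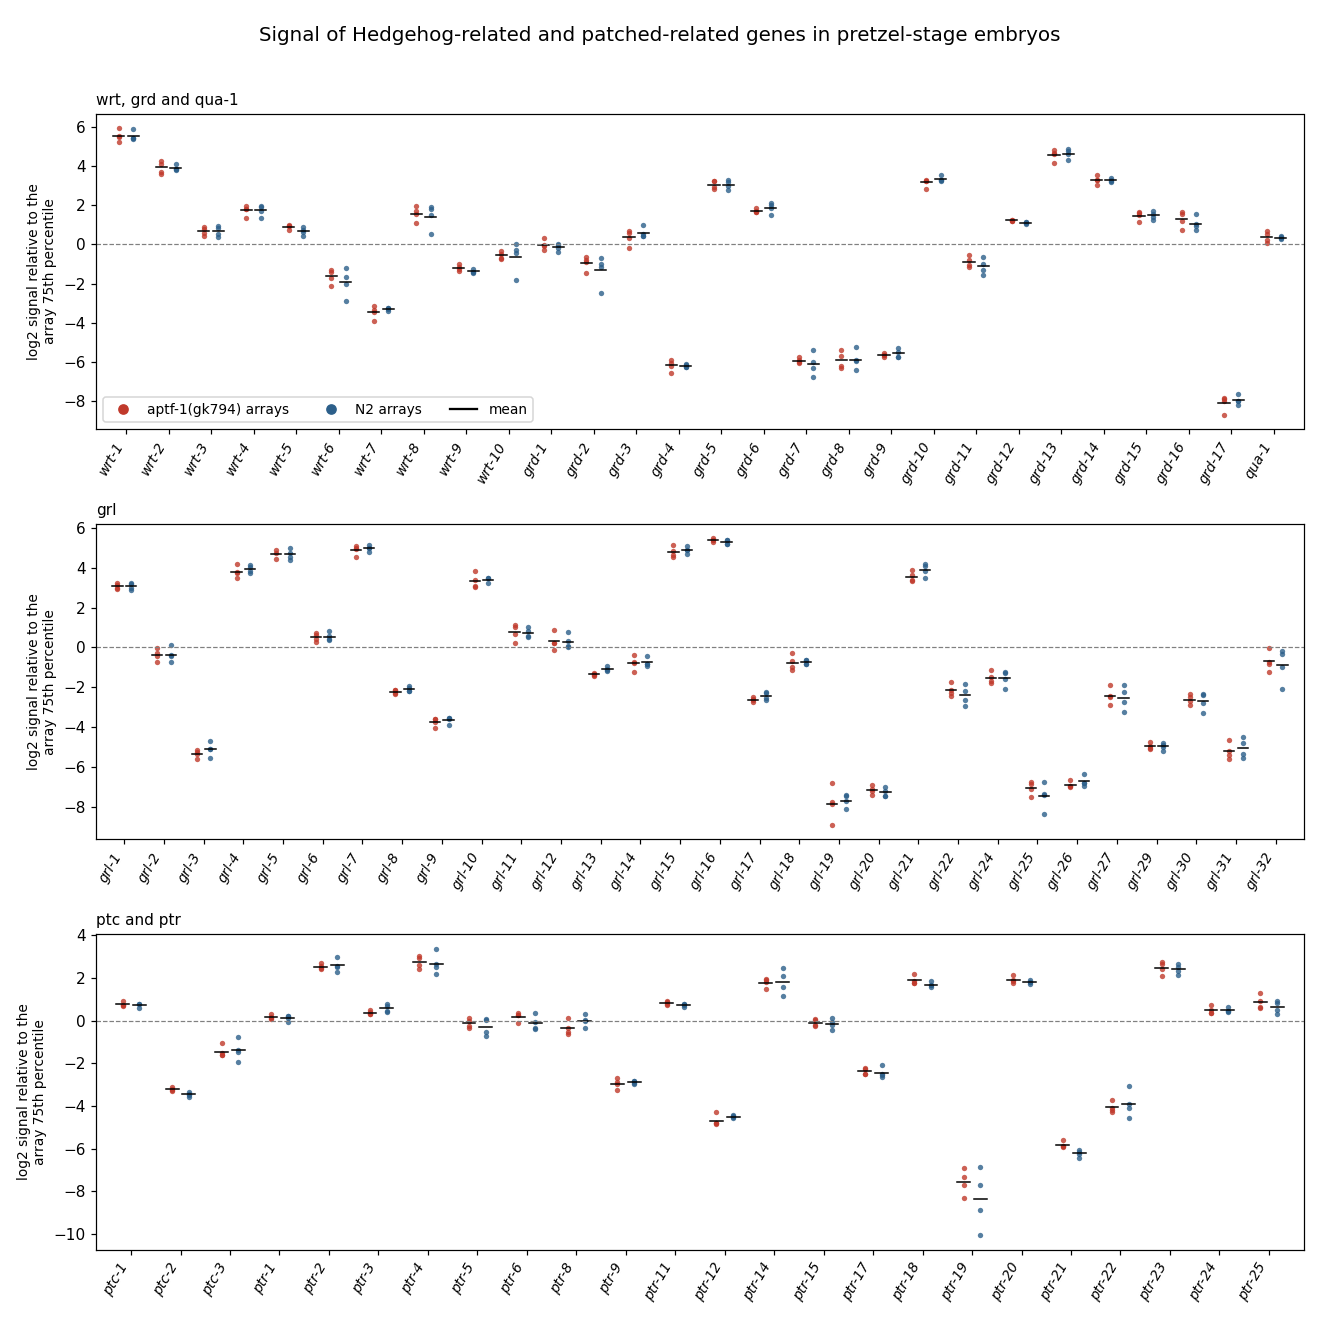
Signal of the 82 tested genes on each array, as log2 units from the array's 75th percentile (vertical axis), with *aptf-1(gk794)* arrays left and N2 arrays right of each gene's position and a bar at the mean of each genotype. The genotypes overlap for 78 of 82 genes, and the widest scatter of N2 arrays is that of *ptr-19*.

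Many probes of the family read above the 75th percentile of their array. Of the 82 tested genes, 36 (43.9%) lay above the 75th percentile on all arrays that measured them, against 22.6% of all genes tested. These were 6 of 10 *wrt*, 8 of 17 *grd*, 10 of 30 *grl*, 1 of 3 *ptc* and 10 of 21 *ptr* genes, and *qua-1*. Of the 6 genes with a mean signal above 4, 4 were *grl* genes (*grl-5*, *grl-7*, *grl-15* and *grl-16*), and the others were *wrt-1* and *grd-13*. At the other end, 13 genes had a mean signal below -5, of which 5 were *grd*, 6 *grl* and 2 *ptr* genes. Probes of 1 gene differed by up to 8.14 log2 units in mean signal (*ptr-12*), so these counts describe signals of probes and not the abundance of transcripts. All genes tested, here and below, are 23222 entries that include single probes matched to no gene. Where the lowest or highest array is counted, they are the 22839 of these entries with a value on all 8 arrays. The share among matched genes alone was not counted.

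Among the *wrt* genes, *wrt-1* and *wrt-7* bounded the signals. *wrt-1* read 5.96, 5.24, 5.49 and 5.53 on *aptf-1* mutant arrays and 5.91, 5.44, 5.47 and 5.39 on N2 arrays. *wrt-7* read -3.38, -3.15, -3.92 and -3.46 on *aptf-1* mutant arrays and -3.26, -3.42, -3.26 and -3.28 on N2 arrays. For both genes the genotypes overlapped, and the first replicate of each genotype was the highest for *wrt-1*. *wrt-2*, whose promoter is used as a marker of the seam cells of the epidermis, read 3.63 to 4.28 on *aptf-1* mutant arrays and 3.79 to 4.11 on N2 arrays.

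The *grd* genes ran between *grd-13* and the pseudogene *grd-17*. *grd-13* read 4.16, 4.82, 4.63 and 4.69 on *aptf-1* mutant arrays and 4.33, 4.62, 4.78 and 4.88 on N2 arrays. *grd-17* read -8.71, -7.85, -7.89 and -8.03 on *aptf-1* mutant arrays and -8.02, -8.22, -8.02 and -7.63 on N2 arrays, and it was well above background on 3 *aptf-1* mutant arrays and on 2 N2 arrays. Both genes overlapped between genotypes, and *grd-17* had only signals near background. *grd-10*, whose promoter also marks seam cells, read 2.85 to 3.30 on *aptf-1* mutant arrays and 3.24 to 3.54 on N2 arrays.

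The *grl* genes ran between *grl-16* and *grl-19*. *grl-16* read 5.40, 5.28, 5.40 and 5.47 on *aptf-1* mutant arrays and 5.41, 5.20, 5.19 and 5.40 on N2 arrays. *grl-19* read -6.81, -7.84, -8.90 and -7.76 on *aptf-1* mutant arrays and -7.71, -8.12, -7.45 and -7.42 on N2 arrays, so that the mutant arrays held both its highest and its lowest value. Reporter genes place some *grl* members in single tube or glial cells. *grl-2*, a marker of the excretory duct and pore cells, read -0.74 to -0.02 on *aptf-1* mutant arrays and -0.73 to 0.13 on N2 arrays. *grl-18*, a marker of the socket glia of the inner labial sense organs, read -1.11 to -0.29 on *aptf-1* mutant arrays and -0.82 to -0.62 on N2 arrays. *qua-1*, which is needed for moulting, read 0.56, 0.05, 0.71 and 0.24 on *aptf-1* mutant arrays and 0.42, 0.33, 0.36 and 0.30 on N2 arrays, with the lowest and the highest value both in the mutant.

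Of the patched-like membrane proteins, *ptc-1*, which acts in cytokinesis of the germline, read 0.93, 0.72, 0.70 and 0.75 on *aptf-1* mutant arrays and 0.77, 0.78 and 0.60 on N2 replicates 2 to 4. Its value on N2 replicate 1 was missing because an outlier spot was left out, and the fit dropped that array. *ptc-3*, an essential gene, read -1.07, -1.61, -1.60 and -1.53 on *aptf-1* mutant arrays and -0.76, -1.37, -1.48 and -1.96 on N2 arrays. Its range over N2 arrays enclosed all mutant values. Among the *ptr* genes, *ptr-4*, which acts in the apical matrix of the epidermis, read 3.03, 2.43, 2.92 and 2.59 on *aptf-1* mutant arrays and 3.37, 2.49, 2.68 and 2.16 on N2 arrays.

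Whether these genes depend on *aptf-1* in late embryos was tested next. No member passed the test. A call needed a fold change of 1.5 or more and a Benjamini-Hochberg adjusted p from limma under 0.05. Of the 82 genes 0 were called, against 0.0388% of all 23222 genes and unmatched probes tested, and of the 117 member probes tested 0 were called, against 0.0504% of all probes. At an unadjusted p under 0.05 in limma there were 3 of the 82 genes, against 2.82% of all genes tested. An alternative test without limma, among those named under the processing below, gave 4 genes at that limit. No share of all genes is given for it, so the 4 cannot be compared with all genes. The adjusted p was 0.99987 for every member. The median log2 fold change was 0.01, against -0.02 over all genes tested, with 46 members above and 36 below 0 (34 and 48 without N2 replicate 4). By subfamily the medians were 0.06 for *wrt*, -0.00 for *grd*, -0.03 for *grl*, 0.06 for *ptc* and 0.06 for *ptr* genes.

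**Figure D2:**
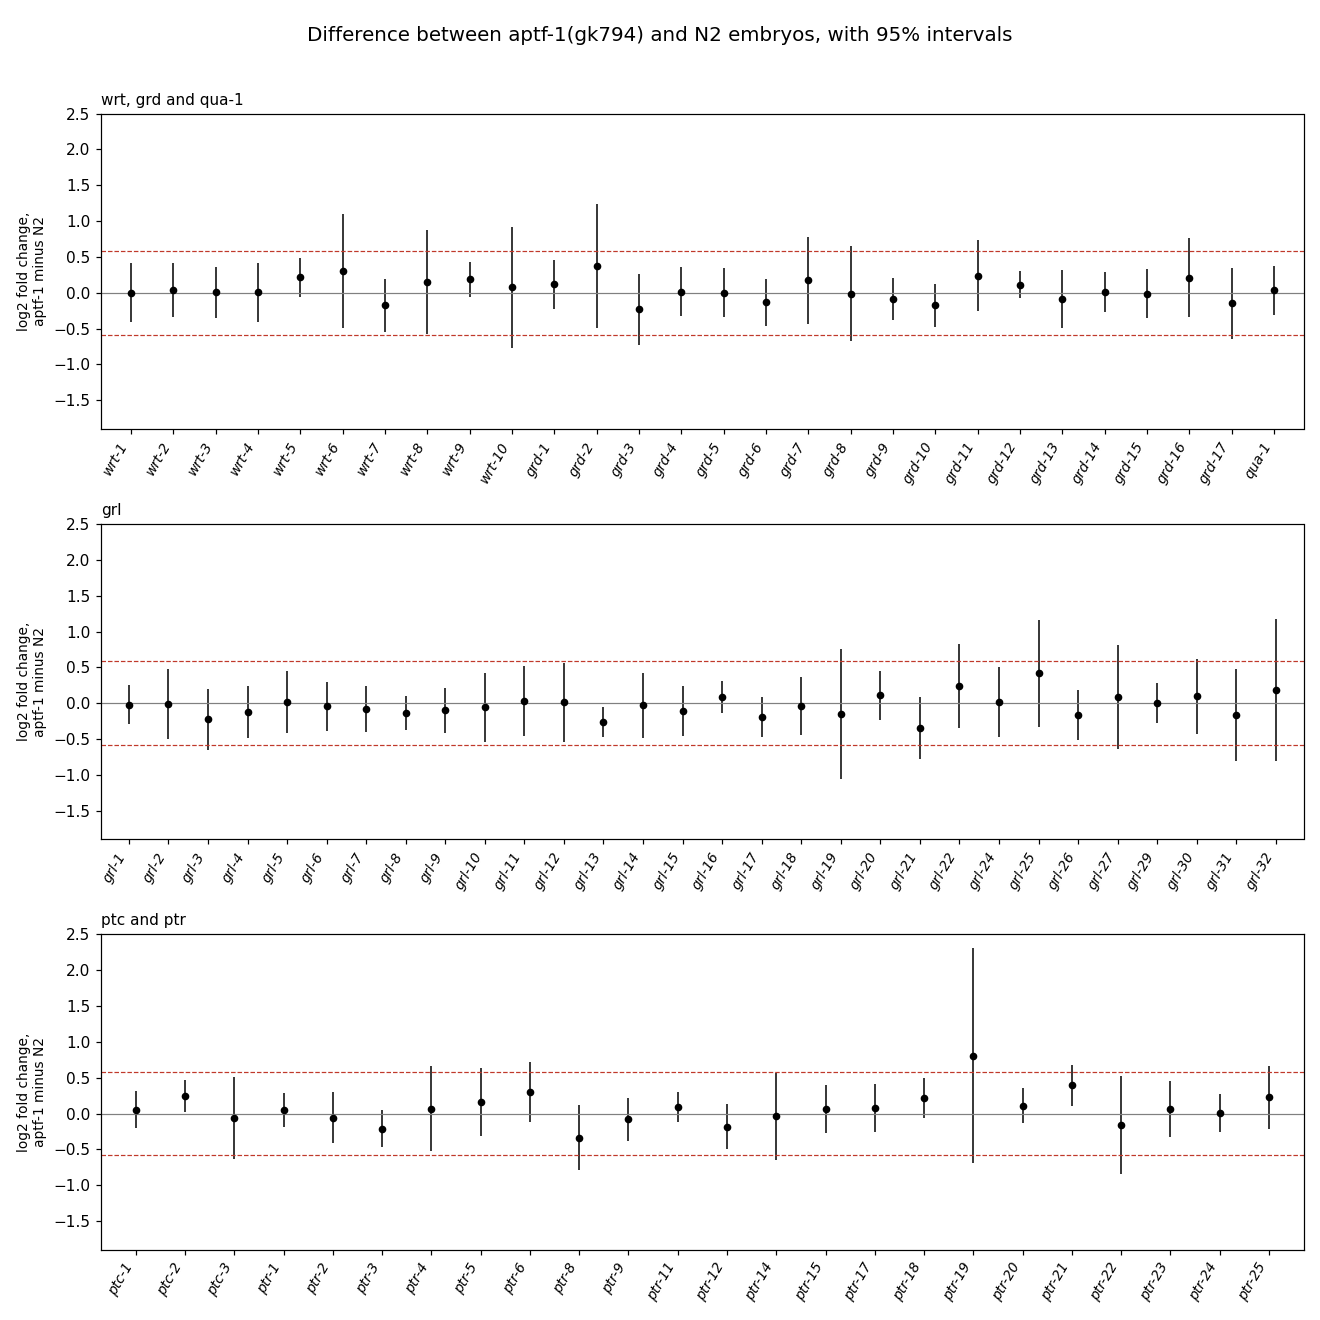
Log2 fold change of the 82 tested genes, *aptf-1(gk794)* minus N2 (vertical axis), with 95% intervals from limma without adjustment, and dashed lines at a fold change of 1.5 in either direction. For 53 genes the whole interval lies between the dashed lines, and only *ptr-19* has a point estimate beyond them.

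The intervals say how large a change could have been missed. For 53 of the 82 genes (64.6%) the 95% interval of the fold change lay within 1.5-fold in both directions, against 63.1% of all genes tested. These were 39 of 58 Hedgehog-related and 14 of 24 patched-related genes. For the other 29 genes a change of 1.5-fold was within the interval. The widest intervals were those of *ptr-19* (-0.70 to 2.31), *grl-32* (-0.80 to 1.17) and *grl-19* (-1.06 to 0.76).

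For 4 members the values of the genotypes did not overlap, against 2.08% of all genes tested. Of these, 3 members were higher in *aptf-1* mutant embryos, against 0.745% of all genes, and 1 was lower, against 1.33%. *ptr-21*, a patched-related gene with dim signals, read -5.58, -5.87, -5.89 and -5.94 on *aptf-1* mutant arrays and -6.23, -6.05, -6.15 and -6.42 on N2 arrays. All mutant arrays lay above all N2 arrays. The log2 fold change was 0.39 (standard error 0.12, limma unadjusted p = 0.0119, adjusted p = 0.99987), with 0.41 on the first slide and 0.37 on the second. *grl-13* read -1.41, -1.34, -1.37 and -1.28 on *aptf-1* mutant arrays and -1.18, -1.09, -1.14 and -0.95 on N2 arrays. All mutant arrays lay below all N2 arrays. The log2 fold change of *grl-13* was -0.26 ± 0.09 (standard error, limma unadjusted p = 0.0199, adjusted p = 0.99987), with -0.23 on the first slide and -0.29 on the second.

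The pseudogene *ptc-2* read -3.25, -3.19, -3.10 and -3.32 on *aptf-1* mutant arrays and -3.45, -3.49, -3.33 and -3.59 on N2 arrays. Its lowest mutant value stood just above its highest N2 value, and the log2 fold change was 0.25 in all and 0.25 on each slide (limma unadjusted p = 0.0335, adjusted p = 0.99987). *grd-12* read 1.17, 1.25, 1.22 and 1.28 on *aptf-1* mutant arrays and 1.12, 1.13, 1.05 and 1.17 on N2 arrays, a log2 fold change of 0.12 (limma unadjusted p = 0.188). Its separation was narrow too.

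The other 10 of the 14 members with the lowest p overlapped between genotypes. Higher means in *aptf-1* mutant embryos were found for *wrt-5*, which the developing epidermis needs, with a log2 fold change of 0.21, for *ptr-18* with 0.22, for *wrt-9* with 0.19 and for *ptr-6* with 0.30. Lower means were found for *ptr-3* with a log2 fold change of -0.21, *grl-17* with -0.19, *grl-8* with -0.14, *ptr-12* with -0.18, *ptr-8* with -0.34 and *grl-21* with -0.34. The brightest of the 3 *ptr-12* probes gave -0.09. The limma unadjusted p of these 10 genes lay between 0.101 and 0.217, and a two-sided exact permutation test gave p-values between 0.0857 and 0.257, where 0.0286 is the smallest that 4 arrays against 4 allow. In the 4 genes with no overlap the permutation p is fixed at that value by their choice. The direction of the 10 genes was the same on both slides, whose arrays were also those that picked them. The size was not: *grl-21* had -0.04 and -0.64, *ptr-8* -0.06 and -0.61, and *ptr-18* 0.01 and 0.42 on the first and second slide. The remaining 68 genes had log2 fold changes between -0.23 and 0.81 and unadjusted p-values of at least 0.219.

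*grl-21*, a Hedgehog-like gene linked to the control of fat storage, is measured by 5 probes. The mean over these probes read 3.33, 3.87, 3.39 and 3.61 on *aptf-1* mutant arrays and 3.46, 3.82, 4.20 and 4.08 on N2 arrays. Mutant replicate 2 lay above N2 replicates 1 and 2. All 5 probes had a negative log2 fold change, between -0.41 and -0.28. *ptr-24*, a patched-related gene linked to the same process, differed by a log2 fold change of 0.01 with a standard error of 0.12.

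**Figure D3:**
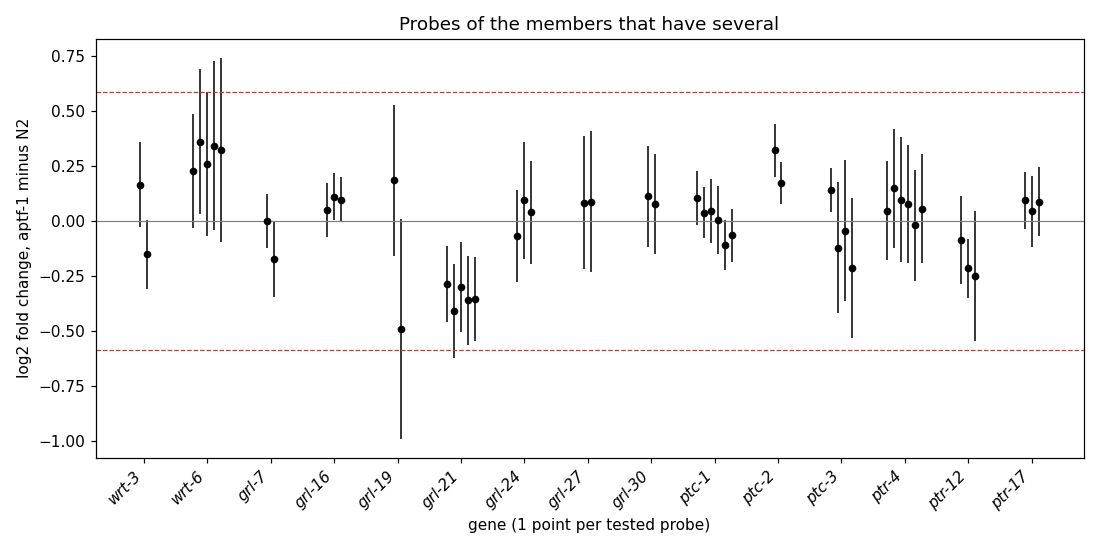
Log2 fold change, *aptf-1(gk794)* minus N2, of each tested probe of the 15 members with several tested probes (vertical axis; bars are standard errors), with dashed lines at a fold change of 1.5 in either direction. Probes of a gene lie close together except for *grl-19*, whose probes gave -0.49 and 0.18.

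Several members had more than 1 tested probe, which allowed a check within genes. Among these 15 genes the largest difference between the log2 fold changes of the probes of a gene was 0.35 outside *grl-19*. In *grl-19*, with signals near background, the probes gave -0.49 (standard error 0.50) and 0.18 (standard error 0.34), a difference within these errors. The signs of the probes differed in 7 genes, at sizes within their standard errors or little beyond. *ptc-1* gave -0.11 to 0.11 over 6 probes, *ptr-4* gave -0.02 to 0.15 over 6 probes, and *wrt-6* gave 0.23 to 0.36 over 5 probes.

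*ptc-3* was the member whose probes differed most in steadiness. Its brightest probe read 2.99 ± 0.08 on *aptf-1* mutant arrays and 2.85 ± 0.11 on N2 arrays (SD, n = 4 each). Its other 3 probes had SDs of 0.31 to 0.34 over *aptf-1* mutant arrays and of 0.59 to 0.67 over N2 arrays. The mean over the 4 probes used above thus took its spread from the dim ones. The brightest probe is named for transcript b of the gene and the other 3 for transcript a. None of the 4 was called, with log2 fold changes from -0.21 to 0.14.

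The widest spreads between replicates of the members were found among N2 arrays. The median SD of the members was 0.239 over *aptf-1* mutant arrays and 0.240 over N2 arrays, and that of all genes tested was 0.185 over *aptf-1* mutant arrays and 0.239 over N2 arrays. An SD above 0.5 occurred for 2 members over *aptf-1* mutant arrays (2.44%, against 8.98% of all genes tested) and for 12 members over N2 arrays (14.6%, against 17.9% of all genes). The 12 were *wrt-6*, *wrt-8*, *wrt-10*, *grd-2*, *grd-7*, *grl-25*, *grl-27*, *grl-32*, *ptr-4*, *ptr-14*, *ptr-19* and *ptr-22*. N2 replicate 4 was the lowest N2 array for 10 of them and the highest for *ptr-14* and *ptr-22*. Without N2 replicate 4, only 2 members had an SD above 0.5 over N2 arrays, against 10, 15 and 16 without N2 replicate 1, 2 or 3. The median SD fell as much without N2 replicate 1 as without N2 replicate 4. It was then 0.194 and 0.189 for the members, and 0.196 and 0.195 for all genes tested. The 12 genes were picked by this SD, so leaving out their most extreme array was bound to lower it.

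**Figure D4:**
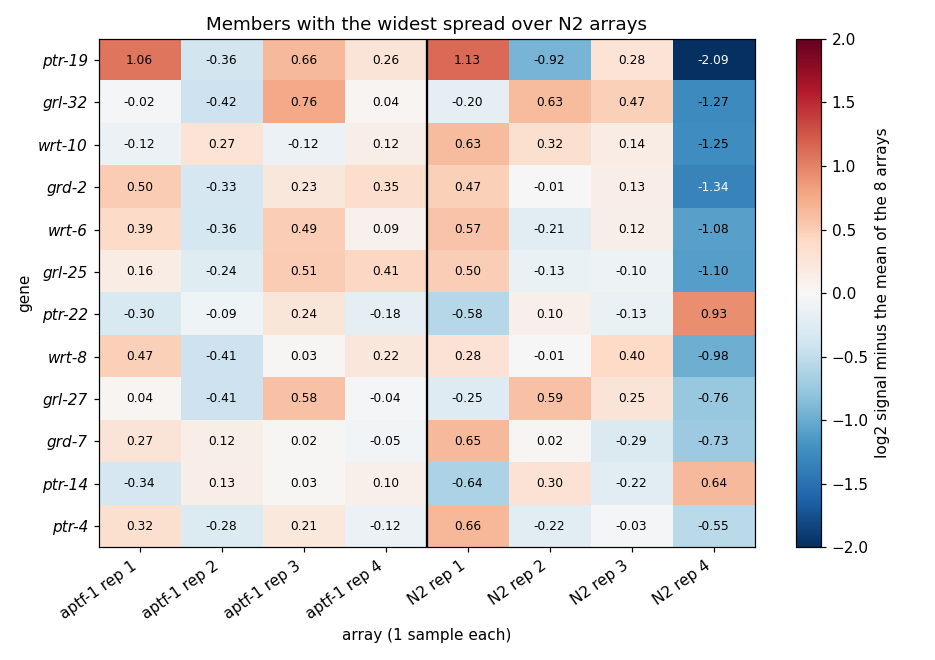
Signal of the 12 members with an SD above 0.5 over N2 arrays, as the difference from the mean of the 8 arrays in log2 units (colour and printed value), with genes down the page in the order of that SD and *aptf-1* arrays left of N2 arrays. N2 replicate 4, the last column, is the lowest N2 array in 10 of the genes and the highest in *ptr-14* and *ptr-22*.

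*ptr-19* varied most. It read -6.91, -8.33, -7.32 and -7.72 on *aptf-1* mutant arrays and -6.84, -8.90, -7.69 and -10.07 on N2 arrays. It was well above background only on replicates 1 and 3 of each genotype, and the lowest values came from arrays where it was not. The log2 fold change of 0.81 (standard error 0.66, limma adjusted p = 0.99987) was 0.24 without N2 replicate 4.

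Brighter members showed the same low array. *wrt-10* read -0.72, -0.32, -0.72 and -0.48 on *aptf-1* mutant arrays and 0.03, -0.28, -0.45 and -1.85 on N2 arrays. *grd-2* read -0.64, -1.47, -0.91 and -0.79 on *aptf-1* mutant arrays and -0.67, -1.16, -1.01 and -2.48 on N2 arrays. *wrt-6* read -2.15 to -1.30 on *aptf-1* mutant arrays and -2.87 to -1.22 on N2 arrays. In these 3 genes the other N2 values overlapped with the mutant ones or lay near them, and N2 replicate 4 stood below all other arrays. Their log2 fold changes were 0.08, 0.38 and 0.30 with all arrays and -0.33, -0.01 and -0.01 without N2 replicate 4. On the first slide they were -0.40, -0.14 and -0.16, and on the second, which held N2 replicate 4, they were 0.55, 0.89 and 0.77.

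*grl-25* read -7.10, -7.49, -6.74 and -6.84 on *aptf-1* mutant arrays and -6.75, -7.38, -7.35 and -8.35 on N2 arrays, and N2 replicates 2 and 4 were not well above background. Its log2 fold change was 0.42 with all arrays and 0.12 without N2 replicate 4. Of the 12 genes, 10 changed the sign of their log2 fold change when N2 replicate 4 was left out. None was called with or without it.

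The low values on N2 replicate 4 were not shared by the whole family. N2 replicate 4 was the lowest N2 array for 28 of 79 members measured on all arrays (35.4%), against 39.6% of all genes tested. The *wrt* genes, as a median over the subfamily, lay 0.23, -0.19, 0.05 and 0.08 from their own means on *aptf-1* mutant arrays and 0.21, -0.02, 0.05 and -0.23 on N2 arrays, while the *grl* genes lay 0.15 above theirs on N2 replicate 4. Genes of the moulting and apical matrix list lay 0.12, -0.12, 0.26 and 0.03 from their means on *aptf-1* mutant arrays and 0.00, -0.04, -0.00 and -0.31 on N2 arrays. Seam cell markers lay -0.28 from theirs on N2 replicate 4. The moulting list and the seam cell markers moved with the *wrt* genes on that array, and their part in the spread was not tested. Epidermis markers did not: they lay 0.03 from their means there, and N2 replicate 4 was the highest N2 array for 4 of 7 of them.

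*aptf-1* mutant replicate 2 was the lowest of its genotype for 30 of 56 Hedgehog-related genes (53.6%) and for 5 of 23 patched-related genes (21.7%), against 31.5% of all genes tested. It was the lowest for 7 of 10 *wrt* and 16 of 28 *grl* genes, and also for 11 of 15 genes of the moulting and apical matrix list (73.3%) and 6 of 8 glia markers. For the *grd* genes it was the lowest in 6 of 17 (35.3%), near the share of all genes tested. Among epidermis markers it was the lowest in 3 of 7 and among seam cell markers in 2 of 7. Whether the array or its embryos set these values apart was not tested.

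The genes of the family are spread over 6 chromosomes, with 34 of 88 on chromosome V and 7 to 13 on each of the others. In the gene table, 12 pairs of members have at most 5 genes between them and 7 pairs are direct neighbours.

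The run of neighbouring genes on chromosome V from *grl-28* to *grl-32* and *grl-27* held genes with a like pattern over arrays. *grl-32* read -0.82, -1.21, -0.03 and -0.75 on *aptf-1* mutant arrays and -0.99, -0.16, -0.32 and -2.07 on N2 arrays. *grl-31* read -5.37, -5.61, -4.62 and -5.18 on *aptf-1* mutant arrays and -5.53, -4.48, -4.80 and -5.33 on N2 arrays. In *grl-27* and *grl-30*, as in these, replicate 3 was the highest and replicate 2 the lowest of the *aptf-1* mutant arrays, and N2 replicates 2 and 3 were above the other N2 arrays in all 4 genes. *grl-29*, which lies among them, read -4.95, -4.73, -5.10 and -5.03 on *aptf-1* mutant arrays and -4.90, -5.17, -4.78 and -4.97 on N2 arrays, without this pattern. These genes were singled out after their values were seen, and whether their probes also bind each other's transcripts was not tested.

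Genes related to the pathway did not pass the test either. Of 10 listed genes all were tested, with a median log2 fold change of 0.02. The count called was 0, against 0.0388% of all genes tested. At a limma unadjusted p under 0.05 there were 0, against 2.82% of all genes tested. In a list of 10 genes, counts of 0 are near these shares. *tra-1*, the GLI homologue that acts in sex determination, had a log2 fold change of -0.06. The Dispatched-like genes *che-14* and *ptd-2* had 0.18 and -0.12, and *daf-6*, a patched-related gene that shapes the channel of the amphid glia, had 0.03. The homologues of the sterol transporter NPC1 *ncr-1* and *ncr-2* had -0.11 and 0.01, and *scp-1*, which resembles the sterol sensor SCAP, had -0.06. *lrp-1*, the megalin homologue needed for moulting, had 0.21, and the acyltransferase-like genes *hhat-1* and *hhat-2* had 0.16 and 0.05. The standard errors of these 10 log2 fold changes lay between 0.08 and 0.22.

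Lists of epidermal and apical matrix genes had small positive medians without a call. Epidermis markers had a median log2 fold change of 0.20 over 9 genes. The moulting and apical matrix list had 0.16 over 15 genes and seam cell markers 0.13 over 7 genes. Each list had 0 genes called, against 0.0388% of all genes tested. Each had 0 at a limma unadjusted p under 0.05, against 2.82% of all genes tested. In lists this short, counts of 0 are near these shares. Some of the signs rested on single arrays. Of the *wrt* genes 9 of 10 had a positive log2 fold change with all arrays, 3 of 10 without N2 replicate 4 and 5 of 10 without *aptf-1* mutant replicate 1. Without N2 replicate 4 the count was 11 of 15 in the moulting list, against 14 of 15 with all arrays, and 3 of 7 among the seam markers, against 7 of 7. The seam median was then -0.02. The medians of the glia, neuron, body wall muscle, pharynx, intestine and early embryo or germline lists lay between -0.02 and 0.01.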

How the data were processed

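Scanner output of 8 one-colour Agilent arrays, 4 of *aptf-1(gk794)* and 4 of N2 embryos, was analysed. The authors deposited the background-corrected intensity of each spot from Agilent Feature Extraction 10.7.3.1, and marks of its software for saturation, outliers and detection above background. The deposited series table holds log2 values, whose scale is not stated and whose columns order the probes as the intensities do; these were used as an alternative. The submitters' notes name limma for their own processing.

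From 45220 spots per array, 1417 control spots and 62 to 188 outlier spots were left out. Log2 intensities were set against the array's 75th percentile and averaged per probe. Of 43603 probes, 34271 were matched by sequence name or accession to a gene of WBcel235, a table newer than the array design, so no coordinates are given. A probe was tested if 4 or more of the 8 arrays marked it well above background, and a gene as the mean of its tested probes, with limma 3.58.1 (lmFit, eBayes; R 4.3.3). An outlier spot leaves the gene without a value on that array. A gene was called when its fold change was 1.5 or more and its p, adjusted over all genes tested, was under 0.05. The number of arrays limits the precision, and 95% intervals are not adjusted. The fit was tested on simulated data.

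The members were taken by a rule on gene names alone. That rule and the gene lists were chosen with earlier results of these data known. Named genes are the 14 with the lowest p, the 6 with the largest SD over N2 arrays, the *ptc* genes and *qua-1*, the highest and lowest signal per subfamily, genes whose probes disagree, and the related pathway list. Other members are named for their known role or, where said, after their values were seen. Alternatives were other scalings, background correction, filters, weights, blocks, tests and arrays left out. Probe and promoter sequences were not used here, so a planned count of an AP-2 motif was not run.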

Additional observations from a re-analysis of the deposited data

Results flagged for a closer look

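In 6 genes, 1 array of 4 stood far from the other arrays of its genotype, by a gap that took a larger share of the group's range than Dixon's critical value at the 95% level allows. *ptr-12* read -4.29 on *aptf-1* mutant replicate 3, against -4.86 to -4.78 on the other mutant arrays. This is a mean over 3 probes. A dim one of them read -5.98 on that array, against -7.24 to -7.05 on the other mutant arrays. *ptc-3* read -1.07 on *aptf-1* mutant replicate 1, against -1.61 to -1.53 on the other mutant arrays. *wrt-1* read 5.91 on N2 replicate 1, against 5.39 to 5.47 on the other N2 arrays, and *wrt-7* read -3.42 on N2 replicate 2, against -3.28 to -3.26. *grd-10* read 2.85 on *aptf-1* mutant replicate 1, against 3.26 to 3.30 on the other mutant arrays, and *ptr-24* read 0.62 on N2 replicate 2, against 0.40 to 0.44 on the other N2 arrays. Over all members these were 6 of 161 groups of 4 arrays, and chance gives about 1 in 20. None of the 6 was on N2 replicate 4, the array with the low values of *ptr-19*, *wrt-10* and *grd-2*.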

How the results depend on the processing

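The count of called members was 0 under all 23 alternatives for genes and all 22 for probes, among them each array left out in turn, and that of the related pathway genes was 0 under 23. Over all genes tested, calls numbered 9 in the main setting, 6 with the slide as a block, 16 with array weights, 2 with the adjusted t-test, 98 with the unadjusted one and 3 to 7 with an array left out. The median log2 fold change of the members lay between -0.01 and 0.05, and the number of members well above background between 77 and 84. The 14 genes with the lowest p kept their direction under all 23 alternatives, but they were picked on the same arrays, which makes a kept direction likely. The log2 fold change of *grl-32* was -0.26 with array weights and lay between -0.21 and 0.42 with an array left out. That of *wrt-10* was -0.022 with array weights and lay between -0.33 and 0.30 with an array left out. With an array left out it lay between -0.0084 and 0.60 for *grd-2* and between -0.0078 and 0.54 for *wrt-6*. In these 4 genes the lowest value with an array left out was the one without N2 replicate 4, and the cause was not tested.

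Same-numbered arrays of the genotypes had correlations of their deviations of 0.52, 0.28, -0.12 and 0.09, against at most 0.23 between arrays of different numbers. The values 0.52 and 0.28 lay above that limit, and -0.12 and 0.09 lay below it. The numbers were not taken as pairs in the main setting, and whether same-numbered samples were handled together was not tested. With the replicate number as a block, 0 members and 0 of all genes tested were called. Outlier spots not counted as well above background, the values without N2 replicate 4, and the counts of signs with an array left out, were chosen after seeing the data. A dim probe has a wide interval: *ptr-19* and *grl-25* were untested under the filter on all 8 arrays. The planned motif count in promoters was not run.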
